A study of Mus musculus with 8 samples.

Results

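Dexamethasone (Dex), a synthetic glucocorticoid, was added together with estradiol (E2) and compared with E2 alone, so that the difference between the groups is the response to Dex in cells that were also given the estrogen. The comparison took the 2 arrays of cells given Dex and E2 (Dex+E2) and the 2 arrays of cells given E2, out of 8 arrays in the series, over 45101 probe sets and 18194 genes. Of these genes, 114 (0.627%) passed the threshold used throughout, an adjusted p under 0.05 in limma: 64 (0.352%) were higher and 50 (0.275%) were lower with Dex+E2 than with E2. The 3 largest increases were in Rgs2, an inhibitor of G-protein signalling, Spsb1, an adaptor of a ubiquitin ligase, and Dusp1, a phosphatase that switches off MAP kinases. The 3 largest decreases were in Klf10, a transcription factor induced by TGF-beta, Ankrd1, a target of the mechanosensitive co-activator YAP, and Gdnf, a neurotrophic growth factor.

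All arrays came from the 7438 line, mouse mammary cells in which a GFP-tagged glucocorticoid receptor (GFP-GR) and a Cherry-tagged estrogen receptor (Cherry-ER) are driven by a tetracycline-regulated promoter. Untreated, Dex, E2 and Dex+E2 groups therefore all carried both fusion receptors, expressed from introduced genes after tetracycline had been withdrawn for 24 hours. Cells had been plated 48 hours earlier in medium with 10% charcoal-dextran serum, which is depleted of steroids, and were given 100 nM Dex, 100 nM E2, or 100 nM of each for 2 hours. The 2 arrays of a group are numbered as replicates, but no label calls them separate cultures. P-values thus measure only how these samples scatter, and that scatter may be technical. For 2 arrays, E2 replicate 2 and Dex+E2 replicate 1, the description field mentions GR-ChIP, although title and treatment place them with the expression arrays.

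The glucocorticoid receptor rests in the cytoplasm with chaperones, binds its hormone, enters the nucleus and raises or lowers transcription from response elements or through other bound factors. Its early targets include feedback inhibitors of kinase signalling, inhibitors of inflammatory transcription, metabolic enzymes and its own co-chaperone. The estrogen receptor is a related steroid receptor, and mammary epithelium responds to both hormones.

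Replicate arrays correlated at 0.997 to 0.999 in the 4 groups, and the Dex+E2 pair was the least alike. Between its arrays 390 genes differed by over 0.5 log2 units, against 95 for the E2 pair and 19 to 56 in the other groups. Of all 8 arrays, the second of this pair resembled the rest least (correlation averaging 0.99593) and the first resembled them most (0.99765). Dex+E2 replicate 2 also showed the top median log2 signal (5.67) and the bottom upper quartile (7.74). Settings without Dex+E2 replicate 1 thus rest on the less typical array of that group, and the cause was not tested. Without Dex+E2 replicate 1 the comparison called 858 genes, 113 of them among the 114, and without Dex+E2 replicate 2 it called 80, with 62 among the 114. Without both arrays described as GR-ChIP, 1 E2 array and 1 Dex+E2 array were left, so the spread came from the untreated and Dex pairs alone. Leaving out an untreated or Dex array changed only the spread, not the difference between Dex+E2 and E2. The log2 ratio of 3′ to 5′ control probe sets, a measure of RNA integrity, lay at 0.114 and 0.216 for Gapdh on the E2 arrays and at 0.118 and 0.136 on the Dex+E2 arrays. For actin it was 0.806 and 0.761 on the E2 arrays and 0.741 and 0.709 on the Dex+E2 arrays, which do not overlap, and the part of RNA integrity in the results was not tested.

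Markers of the labelled cell type were checked in the same arrays, as a rough reading, since signals of different probe sets are not on 1 scale. Of 7 luminal epithelial markers, Epcam and Gata3 lay above the median gene (log2 signal 6.59) and Krt8, Krt18, Krt19, Cdh1 and Elf5 below it, and all 6 milk protein genes lay below it. Of 11 fibroblast or mesenchymal markers, 10 lay above it, among them Vim at a mean log2 signal of 13.93 with E2 and Pdgfrb at 10.98. Their mean log2 signal was 10.13 to 10.18 on the E2 arrays and 9.90 to 10.02 on the Dex+E2 arrays, and 1 of them passed the threshold: Snai2, a transcription factor of epithelial-mesenchymal transition, fell by 0.86 ± 0.11 (SE, adjusted p = 0.0054). At an unadjusted limma p under 0.05, 4 of the 11 were lower, with a list median of -0.14, and of the luminal markers 1, Krt8, was higher. Over all 18194 genes, 0.275% were called lower at the adjusted threshold. At the unadjusted p, 1230 of all genes were higher and 1075 lower. The basal, immune, endothelial and adipocyte markers gave 0 calls among 21 genes, with 0 at an unadjusted limma p under 0.05, and Krt14 was the only one of them above the median gene.

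The 64 genes that rose had a median difference of 0.82 log2 units and a smallest difference of 0.43, against a median of 0.02 over all genes tested. The 50 that fell had a median of -0.73 and a smallest size of -0.44. A change of at least 2-fold was seen in 23 of the genes that rose and 10 of those that fell. In all 114 the 2 Dex+E2 arrays lay on one side of both E2 arrays, which was so for 41.4% of all genes tested. Without the adjustment for multiple testing, 2305 genes had a p under 0.05, 1230 higher and 1075 lower.

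**Figure D1:**
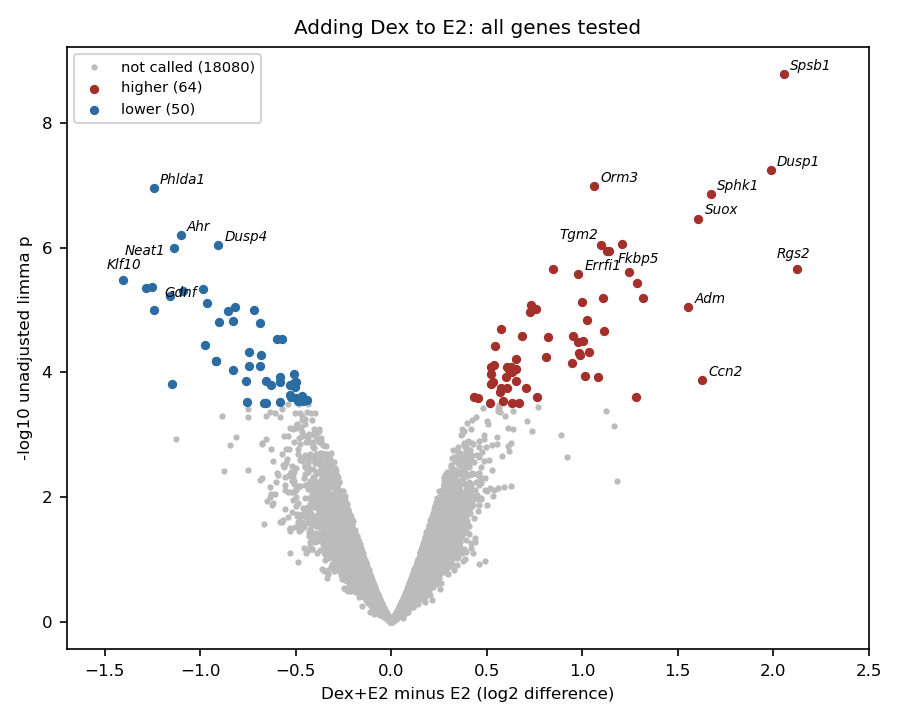
Difference between Dex+E2 and E2 (x axis, log2) against the unadjusted limma p on a -log10 scale (y axis) for 18194 genes. Red points mark the 64 genes higher and blue points the 50 genes lower at an adjusted p under 0.05, and the increases reach 2.12 while the decreases reach -1.40.

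The promoters of the 2 genes with the largest increase and of the 2 with the largest decrease for which a window was given are printed to show what lies next to start sites that moved in opposite directions. Sequences are RefSeq's, mouse build GRCm38.p6, from 250 bases before to 50 after the start, 5′ to 3′ on the gene's strand. They cover Rgs2 at chr1:144004100-144004399 (minus strand), Spsb1 at chr4:149954957-149955256 (minus strand), Ankrd1 at chr19:36119795-36120094 (minus strand) and, for 1 of its 2 starts, Gdnf at chr15:7809798-7810097 (plus strand). Capitals mark a TATAAA box at -31 to -26 and 1 hexamer of the receptor's element, TGTTCT, at 11 to 16 from the Gdnf start, and the other windows hold none of the motifs searched.
Rgs2: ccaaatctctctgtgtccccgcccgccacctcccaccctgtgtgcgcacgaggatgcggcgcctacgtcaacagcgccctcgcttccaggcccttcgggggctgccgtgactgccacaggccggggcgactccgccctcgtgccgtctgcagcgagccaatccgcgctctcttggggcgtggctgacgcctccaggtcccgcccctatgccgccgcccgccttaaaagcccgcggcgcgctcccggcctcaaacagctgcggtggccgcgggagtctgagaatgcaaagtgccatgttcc
Spsb1: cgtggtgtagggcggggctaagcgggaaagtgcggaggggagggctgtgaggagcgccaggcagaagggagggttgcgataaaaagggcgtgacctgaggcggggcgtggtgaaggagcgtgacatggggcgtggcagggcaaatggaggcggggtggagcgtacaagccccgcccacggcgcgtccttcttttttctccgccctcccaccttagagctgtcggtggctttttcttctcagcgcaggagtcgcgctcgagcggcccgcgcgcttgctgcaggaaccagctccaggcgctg
Ankrd1: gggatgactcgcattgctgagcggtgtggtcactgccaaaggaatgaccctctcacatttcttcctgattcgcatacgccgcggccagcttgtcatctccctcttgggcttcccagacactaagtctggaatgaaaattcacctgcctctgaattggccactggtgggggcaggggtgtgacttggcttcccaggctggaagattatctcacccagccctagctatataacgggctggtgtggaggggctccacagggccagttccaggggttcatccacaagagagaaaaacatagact
Gdnf: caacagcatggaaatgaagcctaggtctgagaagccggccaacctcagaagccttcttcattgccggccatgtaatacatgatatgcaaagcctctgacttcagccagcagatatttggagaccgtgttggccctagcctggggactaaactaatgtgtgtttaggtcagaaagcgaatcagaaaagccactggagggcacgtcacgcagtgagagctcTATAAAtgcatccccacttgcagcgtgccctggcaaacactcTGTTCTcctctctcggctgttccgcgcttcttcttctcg

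Over all genes tested, 14369 had such windows, 18010 in number, and 75 windows of 52 higher genes and 41 windows of 34 lower genes were searched on both strands. The paired glucocorticoid receptor element, AGAACA and its reverse complement 3 bases apart, was in 0 windows of either group and in 0.0111% of all windows. The single hexamer AGAACA was in 9.33% of the windows of higher genes, 24.4% of those of lower genes and 14.6% of all. The AP-1 motif TGANTCA was in 6.67%, 2.44% and 6.35% in the same order, the CRE motif TGACGTCA in 8.0%, 4.88% and 2.5%, TATAAA in 9.33%, 12.2% and 9.76%, and the paired estrogen receptor element, GGTCA and its reverse complement 3 bases apart, in 0, 0 and 0.0278%. These shares are descriptions of short windows at the start site, with no test.

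Rgs2, which shortens signalling by Gq-coupled receptors, gave log2 signals of 6.22 and 6.96 on E2 replicates 1 and 2 and 8.89 and 8.54 on Dex+E2 replicates 1 and 2. The lower Dex+E2 array lay well above the higher E2 array, and the difference was 2.12 ± 0.22 log2 units (SE, n = 2 against 2), or 4.36-fold (adjusted p = 0.0027). Spsb1 gave 7.82 and 8.08 with E2 and 9.94 and 10.07 with Dex+E2, a difference of 2.05 ± 0.10 or 4.15-fold. It had the smallest adjusted p of all genes tested, 3.0e-05. Of the 15 genes for regulators of G-protein signalling measured, Rgs2 was the only 1 that passed, and their median difference was 0.09. For this and every list below, the share over all genes was 0.352% called higher and 0.275% called lower. Where a list is counted at an unadjusted limma p under 0.05, 1230 of all 18194 genes were higher and 1075 lower by that measure.

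Dusp1 gave 8.38 and 8.67 with E2 and 10.67 and 10.35 with Dex+E2, a difference of 1.99 ± 0.14 or 3.96-fold (adjusted p = 0.00049). Errfi1, an inhibitor of the EGF receptor, gave 9.96 and 10.15 with E2 and 11.10 and 10.98 with Dex+E2, a difference of 0.98 ± 0.11 (adjusted p = 0.0028). Other phosphatases of the family moved the other way: Dusp4 gave 7.89 and 7.97 with E2 and 6.94 and 7.10 with Dex+E2, a fall by 0.91 on the log2 scale (SE 0.087, adjusted p = 0.0015), and Dusp10 fell by 0.44 (SE 0.082, adjusted p = 0.0486). Among the 18 feedback regulators of MAP kinase signalling measured, 2 rose and 2 fell, against 0.352% and 0.275% of all genes. The other 14 did not pass, and the median was -0.05. In the EGF family, 1 of 11 genes passed: Hbegf, a ligand of the EGF receptor, gave 8.31 and 8.13 with E2 and 7.14 and 7.37 with Dex+E2 and fell by 0.97. The Hbegf call was lost without E2 replicate 1, and the Dusp10 call without any 1 array other than Dex+E2 replicate 1. Without both arrays described as GR-ChIP the Dusp10 difference was -0.49.

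**Figure D2:**
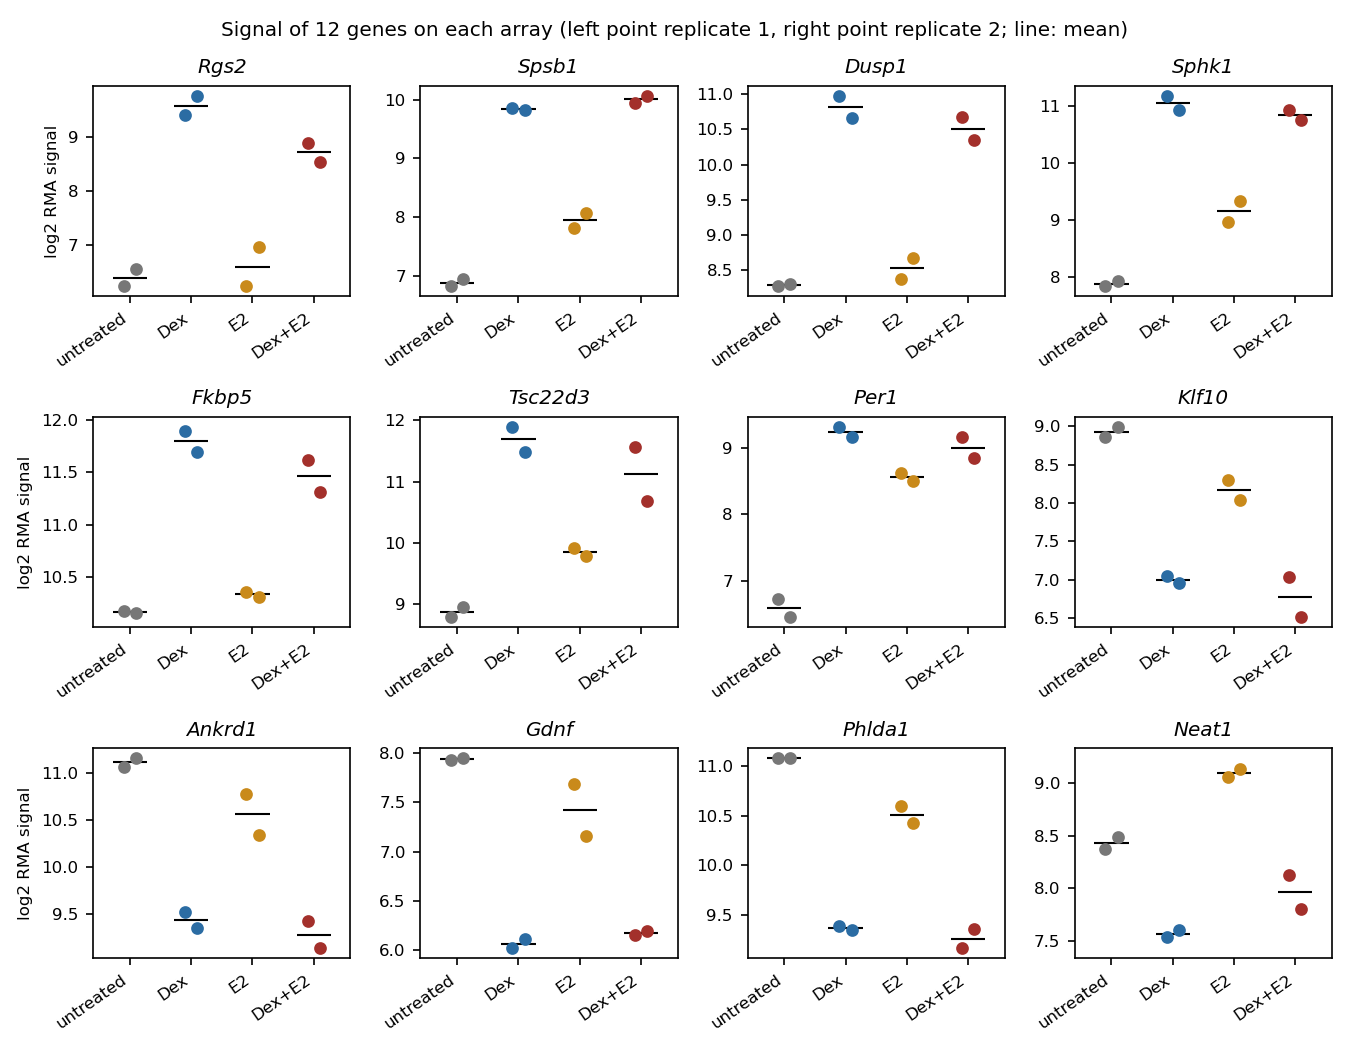
Log2 RMA signal (y axis, scaled separately in each panel) of 12 genes on every array, with 1 point per array (left replicate 1, right replicate 2) and a line at the group mean of 2. In every panel both Dex+E2 points lie on one side of both E2 points, for Per1 by the least (8.84 and 9.16 against 8.50 and 8.62).

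The list of known glucocorticoid targets had 12 of its 32 genes higher and 0 lower, with a median difference of 0.69, where 0.352% of all genes were called higher. At an unadjusted limma p under 0.05, 22 were higher and 2 lower, and the lowest difference in the list was -0.68. The list was drawn up from textbook targets of the receptor, with earlier results of these data known. Fkbp5, the co-chaperone that lowers the receptor's affinity for hormone, gave 10.36 and 10.31 with E2 and 11.62 and 11.32 with Dex+E2, a difference of 1.13 ± 0.11 or 2.19-fold (adjusted p = 0.0015). Zfp36, whose product tristetraprolin hastens decay of AU-rich mRNAs, gave 7.12 and 7.72 with E2 and 8.74 and 8.73 with Dex+E2, a difference of 1.32 ± 0.16 (adjusted p = 0.0045). Tsc22d3, which encodes the leucine zipper protein GILZ, gave 9.91 and 9.78 with E2 but 11.57 and 10.69 with Dex+E2. Its Dex+E2 arrays lay further from each other than the lower of them lay from the higher E2 array, and the difference of 1.28 ± 0.23 passed narrowly (adjusted p = 0.0447). The Tsc22d3 value was 0.84 without Dex+E2 replicate 1 and 0.78 without both arrays described as GR-ChIP. Its call was lost without any 1 of the untreated, Dex or E2 arrays. Without an untreated or Dex array its value stayed at 1.28 and only the spread changed.

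The other targets that passed were Tgm2, a transglutaminase, at 1.10, Lcn2, an iron-binding defence protein, at 1.01, the metallothionein Mt1 at 0.99, Pdk4, which blocks pyruvate oxidation, at 0.98, Errfi1 and the cell cycle inhibitor Cdkn1a at 0.98 each, and Nfkbia at 0.76. Lcn2 was dim, at a mean log2 signal of 4.14 with E2 and 5.15 with Dex+E2, where the lower quartile of genes was 4.88. Nfkbia encodes the NF-kappaB inhibitor IkappaB-alpha, and gave 11.81 and 12.19 with E2 and 12.63 and 12.90 with Dex+E2 (SE 0.14, adjusted p = 0.0447). Sgk1, a kinase that acts on ion transport, differed by 0.64 ± 0.14 and did not pass (adjusted p = 0.0909). Among the targets that did not pass, Fabp4 had the largest difference, 1.18 ± 0.34, and Orm1 was at 1.13 ± 0.22. Leaving out single arrays ended the calls of Nfkbia, Lcn2, Pdk4 and Cdkn1a in turn: E2 replicate 1 for each of the 4 (adjusted p 0.194, 0.164, 0.117 and 0.0715 in that order). Nfkbia and Lcn2 also lost theirs without any 1 untreated or Dex array (0.0656 to 0.107), Nfkbia and Cdkn1a without Dex+E2 replicate 2 (0.234 and 0.0636), and Lcn2 and Pdk4 without E2 replicate 2 (0.0671 and 0.0585). The median of the 32 targets was 0.57 without E2 replicate 1 and 0.79 without E2 replicate 2. It was 0.45 without Dex+E2 replicate 1 and 0.74 without Dex+E2 replicate 2.

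Sphk1, the kinase that makes the signalling lipid sphingosine-1-phosphate, gave 8.97 and 9.34 with E2 and 10.92 and 10.74 with Dex+E2, a difference of 1.67 ± 0.13 or 3.19-fold. Suox, the mitochondrial sulfite oxidase, rose by 1.61 ± 0.14, and Slc25a33, a mitochondrial carrier of pyrimidine nucleotides, by 1.25 ± 0.13. Adm, the vasodilator peptide adrenomedullin, gave 8.03 and 7.86 with E2 and 9.87 and 9.14 with Dex+E2, a difference of 1.55 ± 0.19 (adjusted p = 0.0053). The small GTPase gene Rhob had 9.86 on both E2 arrays and 11.08 and 10.91 with Dex+E2, a difference of 1.14 ± 0.11. In all of these both Dex+E2 arrays lay above both E2 arrays by more than either pair differed within itself.

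Bcl2l1, which encodes the survival protein Bcl-xL, rose by 1.21 ± 0.12 (adjusted p = 0.0015) and was the only 1 of 14 survival and death genes to pass. The kinase gene Dyrk3 rose by 1.28 ± 0.14, the docking protein gene Dok1 by 1.12 ± 0.15 and the transcription factor gene Sox4 by 1.11 ± 0.13. Sox4 stood at 10.45 and 10.51 with E2 and 11.44 and 11.73 with Dex+E2. The call of Sox4 was lost without E2 replicate 1 (adjusted p = 0.0522), and that of Dok1 without either E2 array (adjusted p 0.0601 and 0.0705).

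Among the genes that fell, Klf10 gave 8.30 and 8.04 with E2 and 7.03 and 6.51 with Dex+E2, a fall by 1.40 on the log2 scale (SE 0.15, adjusted p = 0.0033), or 2.65-fold lower. Gdnf gave 7.69 and 7.16 with E2 and 6.16 and 6.19 with Dex+E2, a difference of -1.25 ± 0.14. Artn, the related ligand artemin, gave 7.57 and 7.11 with E2 and 6.24 and 6.13 with Dex+E2, a difference of -1.16 ± 0.14. Gdnf and Artn were the only 2 of 16 neurotrophic and vascular growth factors that fell, against 0.275% of all genes. Adm was the only 1 that rose, against 0.352%, and the median of the list was -0.0022 in a range from -1.25 to 1.55.

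Phlda1, a pleckstrin-homology domain protein, gave 10.59 and 10.42 with E2 and 9.17 and 9.36 with Dex+E2, a difference of -1.24 ± 0.096 (adjusted p = 0.00049). Neat1, the long non-coding RNA that builds paraspeckles, gave 9.07 and 9.14 with E2 and 8.13 and 7.80 with Dex+E2, a difference of -1.14 ± 0.11. Ahr, the aryl hydrocarbon receptor, gave 7.99 and 7.84 with E2 and 6.75 and 6.88 with Dex+E2, a difference of -1.10 ± 0.10. Rnd1 fell by 1.09, and Zfp36l1, a relative of tristetraprolin, fell by 0.99, opposite to Zfp36. The groups did not overlap in these 5 genes, which the rule for naming them required.

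Plau, the urokinase plasminogen activator, gave 5.72 and 6.01 with E2 and 4.47 and 4.77 with Dex+E2, a difference of -1.24 ± 0.16, and was the only 1 of 21 protease, coagulation and matrix genes to pass. Plau was dim, with a mean log2 signal of 4.62 with Dex+E2, under the lower quartile of genes (4.88). Slc16a4, of the monocarboxylate transporter family, fell by 0.97 (SE 0.14, adjusted p = 0.0131), and its call was lost without either E2 array or without Dex+E2 replicate 2 (adjusted p 0.0598 to 0.0957).

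Of 30 cytokines, chemokines and inflammatory enzymes, 2 fell (0.275% of all genes were called lower), 0 rose and the median was -0.0033, and 8 were lower and 1 higher before adjustment, at a p under 0.05. Ptx3, a soluble pattern recognition protein, gave 8.88 and 8.71 with E2 and 8.01 and 7.29 with Dex+E2, a difference of -1.15 ± 0.20 (adjusted p = 0.032). Csf1, the macrophage growth factor, gave 10.81 and 10.49 with E2 and 9.99 and 10.06 with Dex+E2, a difference of -0.63 ± 0.11 (adjusted p = 0.0326). The Ptx3 call was lost without any 1 array other than Dex+E2 replicate 1 (adjusted p 0.0589 to 0.169), and the Csf1 call without any 1 other than E2 replicate 2 and Dex+E2 replicate 1 (0.0769 to 0.167). Among 13 genes for NF-kappaB subunits and inhibitors, Nfkbia rose and the other 12 did not pass. Of 19 acute-phase and defence genes 2 rose, Lcn2 and the interleukin 6 receptor gene Il6ra, which was at 6.59 and 6.90 with E2 and 7.81 and 7.56 with Dex+E2. The Il6ra call was lost without either Dex array or E2 replicate 1 (0.0583 to 0.139).

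Of 25 immediate early genes, 3 fell and 1 rose, against 0.275% and 0.352% of all genes, with a median of -0.09. Klf10 and the AP-1 subunit gene Fosl2 fell, the latter by 0.92 (SE 0.14, adjusted p = 0.0198), as did Ier3, by 0.82, while the small Maf gene Maff rose by 1.01 ± 0.14 (adjusted p = 0.012). The list median was -0.14 without Dex+E2 replicate 1 and -0.20 without both arrays described as GR-ChIP, against -0.09 in the full comparison. It was -0.12 without E2 replicate 1. The call of Ier3 was lost without that array (adjusted p = 0.0622), that of Maff without it or Dex+E2 replicate 2 (0.0601 to 0.0640), and that of Fosl2 without either of them or either untreated array (0.0512 to 0.103).

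Of 19 targets of the actin and Hippo regulated factors SRF and YAP, 1 rose, Ccn2, connective tissue growth factor. Ankrd1, Thbs1 and Ajuba fell, and the median was 0.02. Over all genes, 0.352% were called higher and 0.275% lower. Ccn2 gave 9.66 and 9.38 with E2 and 11.66 and 10.64 with Dex+E2, a difference of 1.63 ± 0.27 (adjusted p = 0.0301), and its Dex+E2 arrays lay over 1 log2 unit apart. Without both arrays described as GR-ChIP, with 1 array left in each group, it was 0.98. Ankrd1 gave 10.78 and 10.34 with E2 and 9.43 and 9.13 with Dex+E2, a difference of -1.28 ± 0.15 (adjusted p = 0.0038). Thbs1, the matrix protein thrombospondin 1, fell by 0.90 (SE 0.12), and Ajuba, a LIM domain adaptor, by 0.83 (SE 0.13). The Ccn2 call was lost without any 1 of the untreated, Dex or E2 arrays (adjusted p 0.0540 to 0.216), that of Thbs1 without E2 replicate 1 (0.0806), and that of Ajuba without either untreated array, E2 replicate 1 or Dex+E2 replicate 2 (0.0625 to 0.159). In the TGF-beta and Smad list, 2 of 20 genes fell, Klf10 and the co-repressor gene Tgif1 (by 0.92, SE 0.14), and 0 rose, against the same shares of all genes. The Tgif1 call was lost without either Dex array, E2 replicate 1 or Dex+E2 replicate 2 (0.0579 to 0.139).

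Of 19 genes for glucose and lipid handling, Pdk4 and the lipid droplet gene Plin4 rose, the latter by 0.65 ± 0.10. Of 20 insulin and IGF signalling genes, Tsc22d3 and the transcription factor gene Foxo3 (0.63 ± 0.10) rose and the insulin receptor substrate gene Irs1 fell (by 0.75, SE 0.12). Over all genes, 0.352% were called higher and 0.275% lower. Of 10 cyclin-dependent kinase inhibitors and D cyclins, Cdkn1a rose. The call of Cdkn1a was lost without E2 replicate 1 or Dex+E2 replicate 2 (adjusted p 0.0636 to 0.0715). Those of Plin4, Foxo3 and Irs1 were each lost without E2 replicate 1 (0.161, 0.155 and 0.125) and without either untreated array (0.0617, 0.0635 and 0.0535). Plin4 and Irs1 also lost theirs without Dex+E2 replicate 2 (0.117 and 0.118), and Foxo3 and Irs1 without either Dex array (0.0705 and 0.0611). Of 18 circadian clock genes, Nfil3, a repressor of D-box genes, rose by 0.95 ± 0.13 and the others did not pass. The Nfil3 call was lost without either E2 array, and its difference was 0.77 without both arrays described as GR-ChIP.

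With 0.627% of all genes called in either direction, lists of this size hold few or no calls at the background share, and 0 calls in a list are given as a count only. Of 29 estrogen targets, 0 passed, their median was 0.07, and at an unadjusted p under 0.05 there were 2 higher and 3 lower, and Greb1 differed by 0.09 ± 0.10 and Pgr by 0.09 ± 0.11. Of 21 cell cycle genes 0 passed, with 1 lower at an unadjusted p under 0.05. Of 13 sterol synthesis genes 0 passed, with 2 lower by that measure, and of 18 stress response genes 0 passed, with 4 higher and 4 lower. Of 16 hormone receptors and coregulators 0 passed, with 1 higher and 1 lower: Nr3c1, which encodes the glucocorticoid receptor, was at 9.95 and 10.00 with E2 and 9.71 and 9.34 with Dex+E2, a difference of -0.45 ± 0.12 (adjusted p = 0.182), and Esr1 differed by 0.27 ± 0.16. In the receptor chaperone cycle Fkbp5 was the only 1 of 13 genes to pass.

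**Figure D3:**
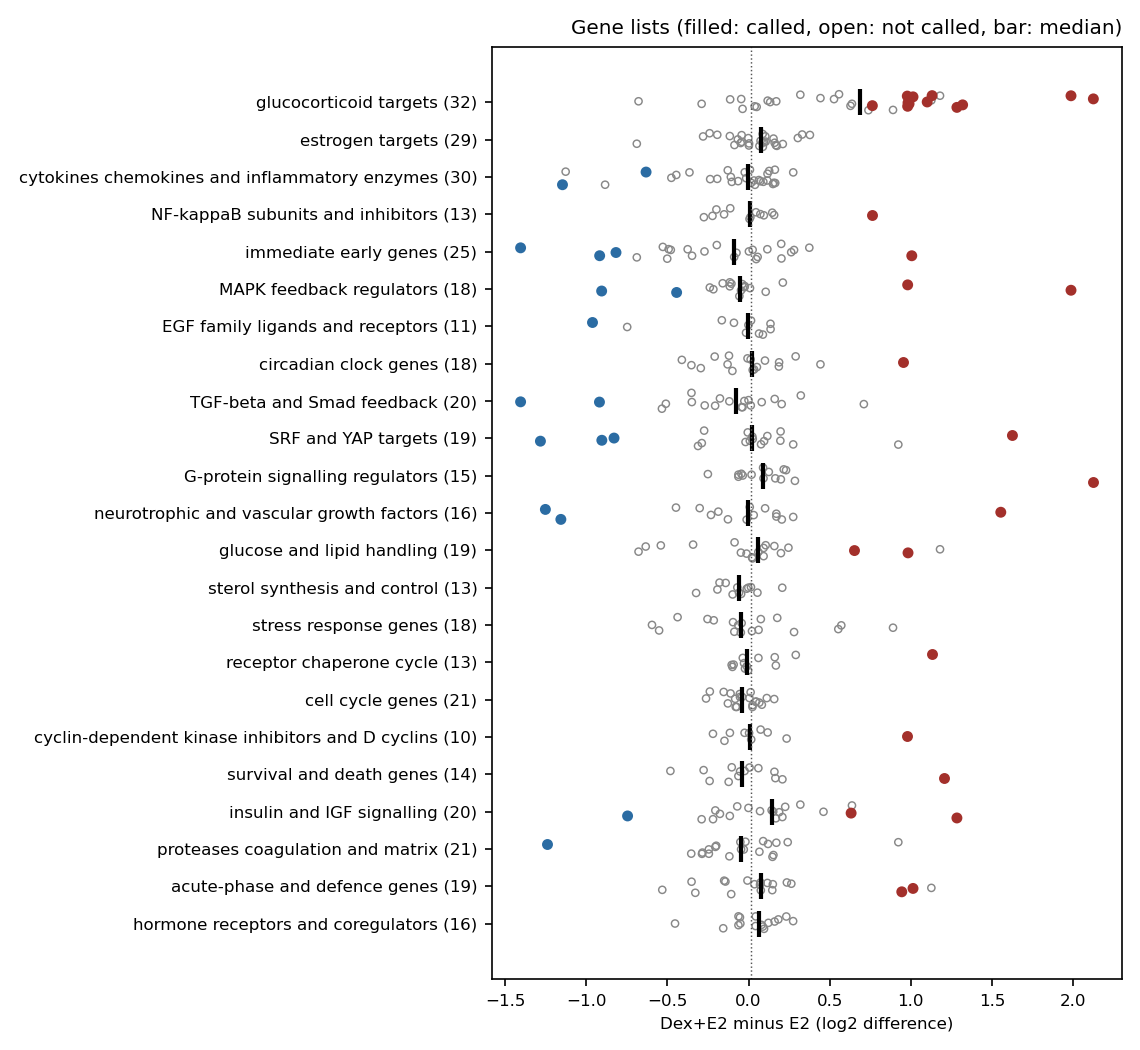
Difference between Dex+E2 and E2 (x axis, log2) of every measured gene in 23 lists (y axis, number of genes in parentheses), with filled red points for genes that rose, filled blue points for genes that fell, open points for genes that did not pass, a black bar at the list median and a dotted line at the median of all genes. The bar of the glucocorticoid targets lies at 0.69, and those of the other lists lie between -0.09 and 0.15.

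How the response to Dex compared with and without E2 was read from the untreated and Dex arrays. The 2 differences share no array, but 1 fit over all 8 arrays gave their common estimate of spread, so the calls are not independent. Dex alone called 267 genes (1.47%), 157 higher (0.863%) and 110 lower (0.605%). Of the 64 genes that rose on adding Dex to E2, 60 also rose with Dex alone, 93.8% of the former and 38.2% of the latter. Of the 50 that fell, 38 also fell with Dex alone, 76.0% of the former and 34.5% of the latter, and 0 genes were called in opposite directions. The 157 genes raised by Dex alone had a median difference of 0.87 with Dex alone and of 0.52 with E2 present, and 155 of them had the same direction. The 110 genes lowered by Dex alone had medians of -0.67 and -0.47, and all 110 had the same direction. Since these genes were chosen on the Dex comparison, the smaller second median is a description.

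The genes chosen the other way, on the comparison with E2 present, also had the smaller difference there. Among the 64 that rose, 56 had a smaller difference than with Dex alone, where their median was 1.15 against 0.82, and among the 50 that fell 33 did, with a median of -0.88 against -0.73, which is likewise a description with no test over genes. Rgs2 differed by 3.21 with Dex alone, Sphk1 by 3.16, Spsb1 by 2.95, Tsc22d3 by 2.82 and Dusp1 by 2.54. Sox4 and Neat1 had the larger difference with E2 present, since Dex alone gave 0.79 for Sox4 and -0.86 for Neat1. For single genes the test of this contrast is the interaction, the Dex difference with E2 minus that without E2, and 1 of 18194 genes passed it (0.0055%), with 1005 at an unadjusted p under 0.05.

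That gene was Per1, a core component of the circadian clock and a direct target of the glucocorticoid receptor. It gave 6.72 and 6.45 in untreated cells, 9.32 and 9.17 with Dex, 8.62 and 8.50 with E2 and 9.16 and 8.84 with Dex+E2. All treated arrays thus lay well above the untreated arrays, and the Dex+E2 arrays lay only just above the E2 arrays. Adding Dex to E2 gave a difference of 0.44 ± 0.13 that did not pass (adjusted p = 0.224), against 2.66 ± 0.13 with Dex alone. The former was 0.28 without Dex+E2 replicate 1 and 0.22 without both arrays described as GR-ChIP. The interaction was -2.21 ± 0.18 with a 95% interval from -2.61 to -1.81 (adjusted p = 0.0035). It did not pass without Dex replicate 1 (-2.14, adjusted p = 0.063), and over the other alternatives its adjusted p ran from 0.00037 to 0.0407. Sphk1 had the next smallest adjusted p of the interaction, 0.0916, at -1.49 ± 0.19. The median standard error of an interaction was 0.136 log2 units, and interactions many times that size did not pass, such as that of Tsc22d3 (-1.54 ± 0.33, adjusted p = 0.577).

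**Figure D4:**
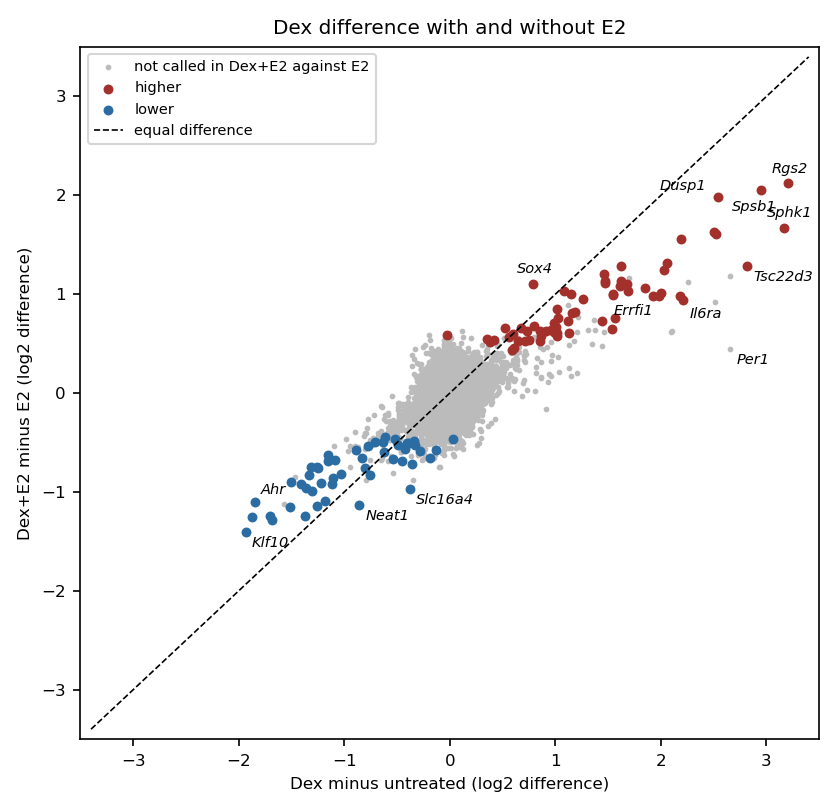
Difference made by Dex without E2 (x axis, Dex minus untreated, log2) and with E2 (y axis, Dex+E2 minus E2, log2) for 18194 genes, with the 64 higher genes in red, the 50 lower genes in blue and a dashed line of equal differences. Most red points lie under the line and most blue points at the left lie above it, and Per1 lies at 2.66 on the x axis and 0.44 on the y axis.

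E2 alone raised 19 genes (0.104%) over untreated cells, and the comparison with Dex+E2 shares the E2 arrays with that one, so the values are only set side by side. Spsb1 was raised by 1.06 with E2 and by a further 2.05 on adding Dex, Sphk1 by 1.27 and 1.67, Cdkn1a by 1.21 and 0.98, Il6ra by 1.14 and 0.94, Plin4 by 1.08 and 0.65, Pdk4 by 1.05 and 0.98, and Errfi1 by 0.95 and 0.98. These 7 of the 19 passed in both comparisons in the same direction. Pim1, a serine/threonine kinase gene, was the only 1 that passed in both with opposite directions: it gave 8.05 and 8.10 in untreated cells, 8.64 and 8.74 with E2 and 7.91 and 8.04 with Dex+E2, a difference of -0.72 ± 0.089 (adjusted p = 0.0054). Zfp52 rose by 1.88 with E2 and differed by -0.38 ± 0.13 on adding Dex, Tmem86a by 1.71 and -0.46 ± 0.18, the tocopherol transfer protein gene Ttpa by 1.71 and -0.34 ± 0.25, and Arrdc2, an arrestin family gene, by 1.61 and 0.63 ± 0.19, of which none of the second differences passed.

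Of the genes called on adding Dex to E2, 16 were not called with Dex alone: 4 that rose (Trib1, Nr2e1, Dnmbp and Prr15l) and 12 that fell. Those that fell were Slc16a4, Pim1, Wnt5a, Pnisr, Zfp955b, Clk4, Katnal1, Zfp846, Zfp955a, Inhba, Klf7 and Zfp101. Nr2e1 was dim, at a mean log2 signal of 3.43 with E2 and 4.02 with Dex+E2, under the lower quartile of genes (4.88). Its second probe set gave -0.07. Clk4, a kinase of splicing factors, gave 8.54 and 8.71 with E2 and 8.13 and 7.96 with Dex+E2, a fall by 0.58, while its difference with Dex alone was -0.13. Wnt5a, a secreted Wnt ligand, fell by 0.67 here and differed by -0.54 with Dex alone, where it did not pass (adjusted p = 0.0828). Of its 4 probe sets only 2 were lower, in a range from -0.67 to 0.25, and 0 passed when tested one by one. None of the 16 passed the interaction test, so a difference between the 2 Dex responses was not shown for them.

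Tested one by one, 151 of 45101 probe sets passed (0.335%), 92 higher and 59 lower, of which 12 have no gene listed. Among the 114 called genes, 46 have 1 probe set and 68 have several, and in 52 of the 68 all probe sets had the same sign. At least 2 probe sets passed in 23 of the 68, and 1 or 0 in the other 45. The other probe sets of Rgs2 gave 1.60, 1.43 and 0.12, those of Spsb1 1.07, 0.85 and 0.24, and that of Ankrd1 -1.27 against -1.28. Bcl2l1 had values of 0.59, 0.44 and -0.11 beside the 1.21 used. Nfkbia had values of 0.78, 0.89, 0.95 and 1.06 beside the 0.76 used. Among all probe sets these others passed (limma adjusted p 0.0239 to 0.0308) and the one used did not (0.0676). For Ahr, Neat1, Ptx3, Plau, Slc16a4 and Fosl2 the second probe set, the dimmer of the pair, gave a small difference of the other sign, between 0.05 and 0.18. When the probe sets of a gene were averaged, the calls of Ahr (-0.47, adjusted p = 0.0686), Ptx3 (-0.50, 0.0835), Slc16a4 (-0.42, 0.201), Fosl2 (-0.43, 0.139), Csf1 (-0.32, 0.220) and Dusp10 (-0.25, 0.218) were lost. Rgs2 at 1.32, Spsb1 at 1.06, Tsc22d3 at 0.82, Fkbp5 at 0.64, Sox4 at 0.63, Bcl2l1 at 0.53, Plau at -0.55 and Neat1 at -0.48 were smaller by over 1.5 times and still passed. In 22 called genes the probe set used has a suffix that marks probes shared between transcripts. In 13 of them, with the suffix _a_at, these are transcripts of the same gene. The values of the 4 with _s_at and the 5 with _x_at may include transcripts of related genes.

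**Figure D5:**
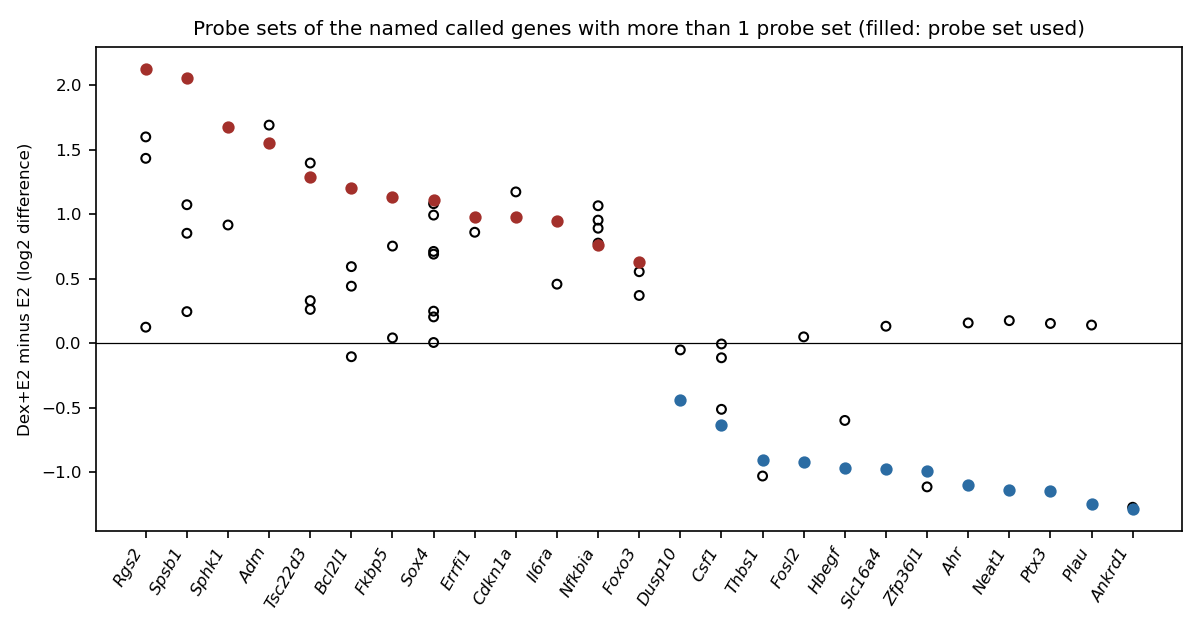
Difference between Dex+E2 and E2 (y axis, log2) of each probe set for the named genes that passed and have more than 1 probe set (x axis, from the largest increase to the largest decrease). Filled points are the probe sets used and open points the others: those of Rgs2 range from 0.12 to 2.12 and those of Ankrd1 lie at -1.27 and -1.28.

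Of the 48 genes that passed and were named by the fixed rule, 24 also passed with each of the 8 arrays left out in turn: Rgs2, Spsb1, Dusp1, Sphk1, Suox, Adm, Zfp36, Dyrk3, Slc25a33, Bcl2l1, Rhob, Fkbp5, Errfi1, Klf10, Ankrd1, Gdnf, Plau, Phlda1, Artn, Neat1, Ahr, Rnd1, Zfp36l1 and Dusp4. Over those settings Dusp1 ranged from 1.82 to 2.15, Fkbp5 from 0.98 to 1.28, Phlda1 from -1.34 to -1.15 and Rgs2 from 1.76 to 2.49. The other 24 lost their call without at least 1 array. All 48 kept their direction under every alternative run for them, but under most alternatives this was fixed in advance. Their Dex+E2 and E2 arrays do not overlap, so leaving out arrays could not reverse a sign. Without an untreated or Dex array each difference stayed as it was, and a lost call reflects only the changed spread. Only averaging probe sets or rescaling the arrays could have done so. Other genes named above, among them Tgm2, Mt1, Snai2, Pim1, Clk4 and Wnt5a, were not followed one by one through these settings.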

How the data were processed

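The deposited table holds log2 values of 45101 Affymetrix probe sets on 8 arrays. Per the submitters' processing notes the authors made them in Affymetrix Expression Console by RMA (robust multi-array averaging); versions are not given in the sources used here. RMA sets the arrays to 1 distribution and compresses changes of dim probe sets.

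Gene names come from the platform annotation: 34958 have 1 symbol, 932 several, and 9211 are not listed. A gene is its probe set with the highest mean among those with 1 symbol (18194 genes, of which 18033 matched RefSeq GRCm38.p6 by Entrez number). limma 3.58.1 in R 4.3.3 was fitted to 4 group means over all 8 arrays (4 residual and 6.2 prior degrees of freedom), with Benjamini-Hochberg adjustment over all genes and a threshold of 0.05. The code was checked on simulated data with equal spread in all groups. Such data do not copy the wider Dex+E2 pair, so the check says nothing about the calls. Errors after ± are limma standard errors (SE, median 0.0964). The number of arrays, 2 a group, limits the precision.

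The genes and lists were chosen with earlier results of these data known, and no list was tested as a set. The text names the 16 largest increases and 12 largest decreases among called genes with no overlap between Dex+E2 and E2 arrays, without predicted or clone names. Also named are up to 4 called genes from each list, 12 genes always given, and genes of the interaction and E2 comparisons. Tgm2, Mt1, Fabp4, Orm1, Snai2, Pim1, Clk4, Wnt5a, the other genes not called with Dex alone, the other E2 genes and the marker genes were named after their values were seen.

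Alternatives were the 4 arrays alone, a replicate block, each array left out, both arrays with a ChIP description left out, genes above the median level, probe sets averaged per gene, every probe set, a trended robust prior, quantile normalization and equal array medians. Added after seeing the data were the list medians without arrays of the Dex+E2 and E2 groups, the Per1 interaction under each setting and probe sets above the median level.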

Additional observations from a re-analysis of the deposited data

Results flagged for a closer look

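Per1 stood out because the difference made by Dex changed with E2 by a test of the difference itself. The interaction was -2.21 log2 units (limma adjusted p = 0.0035), with Dex differences of 2.66 without E2 and 0.44 with it.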

How the results depend on the processing

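The 114 calls (64 higher, 50 lower) rest on a spread estimated over 4 groups of 2 arrays. With only the 4 arrays of Dex+E2 and E2, 23 genes passed (15 higher, 8 lower), with 5 glucocorticoid targets higher and 10 probe sets. The interaction could not be fitted on 4 arrays. Leaving out single arrays gave 31 to 858 genes (16 to 398 higher, 15 to 460 lower), 30 to 1970 probe sets, 6 to 15 glucocorticoid targets and 0 to 20 interactions. The low ends of all but the interaction came without E2 replicate 1, and the 858 without Dex+E2 replicate 1, where the lone Dex+E2 array is assumed to vary like the other groups. Leaving out any 1 untreated or Dex array gave 65, E2 replicate 2 gave 62 and Dex+E2 replicate 2 gave 80. Without both arrays described as GR-ChIP there were 236 genes (146 lower), 525 probe sets and 8 interactions. Genes above the median level gave 79 lower genes, and the interaction had 4 calls with a trended robust prior and 2 after quantile normalization. The causes were not tested. The total stayed within 1.5 times of 114 with the mean of probe sets (100), equal medians (117), quantile normalization (142), above-median genes (151) and the trended prior (152). With every probe set tested, 158 probe sets of 122 genes passed. Of the 48 named calls, all kept their direction, which leaving out arrays could not change, and 30 were lost with 4 arrays alone.

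Whether equal replicate numbers pair the arrays was not settled. The replicate 2 minus replicate 1 difference over all genes correlated at 0.190 between untreated and Dex, 0.347 between untreated and E2 and 0.267 between Dex and E2. With the Dex+E2 group it correlated at -0.260 for untreated, -0.0705 for Dex and -0.164 for E2. With a replicate block 82 genes passed, 49 higher and 33 lower, 78 of them among the 114. Of the 48 named calls, 8 were lost with it: Csf1, Dusp10, Foxo3, Il6ra, Lcn2, Nfkbia, Plin4 and Tgif1 (limma adjusted p 0.0529 to 0.0850).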

Other observations

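Some related genes, picked after their values were seen, moved in opposite directions on adding Dex to E2. Irf2bp2, which encodes a co-repressor, rose by 1.00 ± 0.12 log2 units (SE, limma adjusted p = 0.0050), and its relative Irf2bpl fell by 0.53 (SE 0.096, adjusted p = 0.0434). Tsc22d3 rose and its relative Tsc22d2 fell by 0.68 (SE 0.10, adjusted p = 0.017). Tob2, an anti-proliferative gene of the BTG family, rose by 0.85 ± 0.089 (adjusted p = 0.0027). Orm3, an acute-phase orosomucoid gene outside the lists above, gave 5.08 and 5.05 with E2 and 6.12 and 6.13 with Dex+E2, a difference of 1.06 ± 0.081 (adjusted p = 0.00049). The zinc finger genes Zfp955a, Zfp955b, Zfp846 and Zfp101 fell by 0.51, 0.58, 0.51 and 0.47, and related transcripts of such families may share probes. The second probe set of Zfp846 gave 0.23.

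Of the 12 called probe sets with no gene listed, 8 were higher and 4 lower. The probe set 1441799_at gave 6.83 and 7.17 with E2 and 9.29 and 8.75 with Dex+E2, and 1418250_at gave 8.43 and 8.67 against 10.75 and 10.09.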
